A study of Mus musculus with 4 samples.

Results

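The genes described here are 36 genes of mitosis and of G2/M, the stretch of the cell cycle that runs from the end of DNA replication to cell division. They were taken from a written list of mitotic kinases, cyclins, checkpoint, kinetochore, spindle and cytokinesis genes, and all 36 were found among the 17630 genes with values in every library. All 36 had a mean of at least 1 FPKM (fragments per kilobase of transcript, scaled to the depth of the library) over the 4 libraries. That filter was passed by 12282 genes, which are called tested genes here.

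The study asked what sympathetic nerve signals do in mouse mammary basal cells. RNA was sequenced from basal cells sorted from control and from 6-OHDA-treated female mice, and from basal cell colonies grown with and without SP. 6-OHDA, 6-hydroxydopamine, is a toxin taken up by sympathetic nerve endings, and SP stands for salbutamol with phenylephrine, agonists of beta- and alpha-adrenergic receptors. All 4 groups are wild type and each holds 1 library, so every comparison below is a difference between 2 libraries with no replicate check and no p-value.

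The sorted cells were gated as Lin−CD24+CD29hi, and the colonies grew from basal cells in Matrigel with EGF and an insulin, transferrin and selenium supplement. The colony control was taken as such because its title carries the number 0 where that of the SP library carries 200, with no unit given, and its treatment label names no agent. That it is a colony library was inferred in the same way, as its labels do not say so in words. The age of the mice behind these libraries, and whether cells of several mice were pooled, could not be taken from the labels or methods. The label names all 4 as basal cells. Krt14, a basal keratin, was at 3595 FPKM in sorted control cells, 2633 in sorted 6-OHDA cells, 3298 in control colonies and 6919.9 in SP colonies. The contractile gene Myh11 was at 467 and 449 FPKM in the sorted libraries and only 11.2 and 21.5 in the colonies. Krt8, a luminal keratin, was at 559.9, 545, 698 and 683 FPKM in the same order, so no library lacked luminal transcripts.

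The sorted 6-OHDA library stood apart from the others. Salivary gland secretory genes, 15 of 18 of which have values here, summed to 16351 FPKM in it, 3.16% of its FPKM sum, and to 37.4 in sorted control cells, 15.5 in control colonies and 15.8 in SP colonies. Bpifa2 alone was at 7277 FPKM there and listed at 0 in sorted control cells. The main results on this library are therefore also given with both sorted libraries rescaled to the same sum without these genes. That shifts all genes alike and does not remove other RNA from the same source, which could not be worked out here, and its part in the mitotic result was not tested.

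Cells enter mitosis when Cdk1 with B-type cyclins becomes active, supported by Plk1 and the Aurora kinases. Kinetochores then couple chromosomes to the spindle while the checkpoint holds the anaphase-promoting complex back until every chromosome is attached, and the central spindle places the cleavage furrow. Many of these genes are transcribed late in the cycle and are low in cells that are not dividing, and in the adult mammary gland at rest few basal cells divide. Whether the sorted cells came from adult glands at rest or from growing ones could not be told.

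Summed over the 36 genes, the level was 57.8 FPKM in sorted control cells, 131.9 in sorted 6-OHDA cells, 492.9 in control colonies and 849.4 in SP colonies. The sums were 0.0114%, 0.0255%, 0.0853% and 0.144% of all FPKM in these libraries. The median member was at 1.37 FPKM in sorted control cells, 2.91 after 6-OHDA, 10.6 in control colonies and 17.8 with SP. Sorted control cells were thus the lowest library and SP colonies the highest. Placed among the tested genes of the same library, the median member lay at percentile 10.9, 20.9, 43.2 and 60.4 in that order, near the bottom of the expressed genes in sorted cells and above their middle in SP colonies. In these bulk libraries more dividing cells and more RNA of these genes per cell cannot be told apart.

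Each of the 36 genes had its 4 values in the same order, lowest in sorted control cells, then sorted 6-OHDA, then control colonies, then SP colonies. Of all tested genes, 17.3% had that order, as did 85.7% of 56 DNA replication and G1/S genes and 83.5% of the 91 other mitotic genes past the filter, lists that are described below. Cdc20 left it when the 4 libraries were rescaled to the same sum or by the median ratios of the tested genes, and the other 35 kept it. Of tested genes, 14.2% and 15.8% had that order under these scalings. Without the salivary gland secretory genes in the sum, all 36 kept it, as did 14.9% of tested genes.

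**Figure D1:**
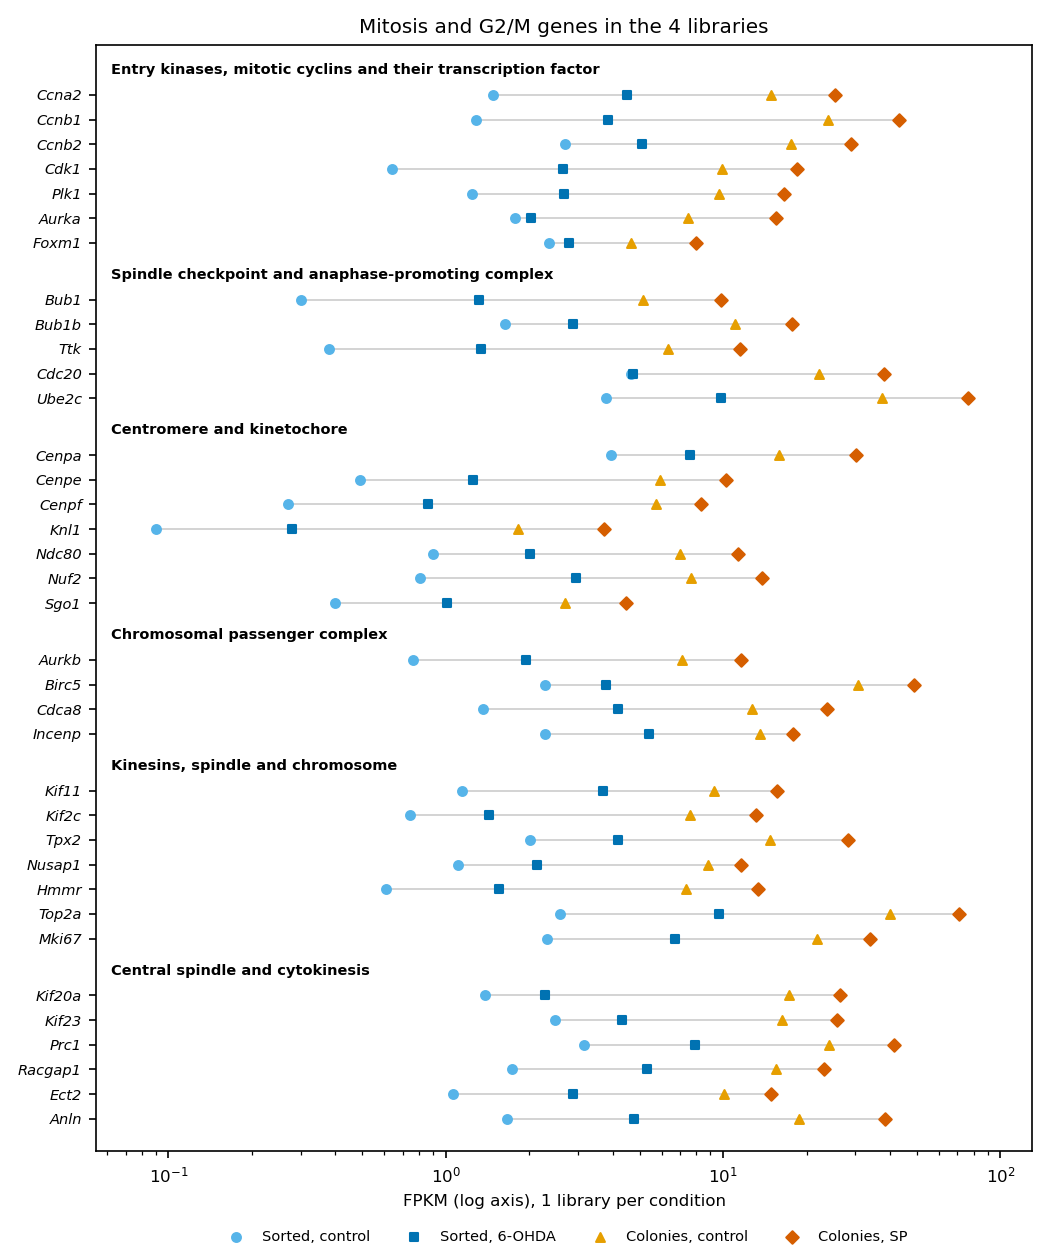
FPKM of the 36 genes in the 4 libraries, on a log axis, grouped by role, with 1 point per library. Light circles are sorted control cells, dark squares sorted 6-OHDA cells, triangles control colonies and diamonds SP colonies. The 4 points of every gene run in the same order, and those of Cdc20 in the sorted libraries, 4.66 and 4.74, nearly coincide.

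Changes are given as differences of log2(FPKM + 1), which understate the change of genes at low level, and a gene is counted as higher or lower when the difference exceeds 0.3 in size. With 6-OHDA, 32 of the 36 genes were higher in sorted basal cells and 0 were lower, where 16.0% of tested genes were higher and 7.84% lower. Past a difference of 1 were 12 of 36, with 123 of the 12282 tested genes, and with a pseudocount of 5 in place of 1 the count past 0.3 was 18 of 36, with 6.53% of tested genes. Bub1, Cenpe, Cenpf, Knl1, Sgo1 and Ttk are among the tested genes only through the colony libraries, and with a mean of at least 1 FPKM over the 2 sorted libraries required, 27 of the other 30 were higher, with 15.8% of the genes past that filter. The remaining 4 of the first count, Aurka, Cdc20, Foxm1 and Knl1, were above control by 0.13, 0.02, 0.18 and 0.23. The difference of Cdc20 turned below 0 with both libraries rescaled to the same sum, scaled by the median ratio or quantile normalized. The median member difference was 0.75, against 0.06 over all tested genes, and 1.89% of tested genes lay above that median. It was 0.31 with a pseudocount of 5 and 1.22 with 0.1. Rescaled without the salivary gland secretory genes, 32 of 36 were again higher and the member median was 0.76, with 17.7% of tested genes higher and their median at 0.07. Of all genes past the threshold, 67.1% were higher, and the share was 51.3% with scaling by the median ratio. Under that scaling the member count was 32 again, and 11.7% of tested genes were higher.

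In colonies with SP, 36 of 36 genes were higher than in control colonies, where 11.3% of tested genes were higher and 19.5% lower. The median member difference was 0.73 while that of all tested genes was −0.06, and more tested genes were past the threshold below control than above it. Past a difference of 1 was 1 of 36, Ube2c, where 1.83% of tested genes were higher and 1.28% lower. The differences ran from 0.36 for Nusap1 to 1.01 for Ube2c. Scaled by the median ratio, the share of higher genes among those past the threshold went from 36.7% to 49.8%. The member count was 36 again under that scaling, with 14.4% of tested genes higher and 14.5% lower.

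Control colonies and control sorted cells differed in far more genes. All 36 members were higher in the colonies, as were 55.6% of tested genes, while 26.5% were lower. Past a difference of 1 were 35 of 36, all but Foxm1, and 30.6% of tested genes. Scaling by the median ratio moved the median of all tested genes from 0.45 to 0.00 and the member median from 2.32 to 1.965. With a pseudocount of 5 these medians were 0.31 and 1.295. The share of higher genes among those past the threshold was 67.7% as given and 50.2% with scaling by the median ratio. Under that scaling 36 of 36 members were again higher, as were 39.9% of tested genes. This comparison shares a control library with each of the other 2, so its values are given beside theirs and not as support for them.

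The members were more uneven with 6-OHDA than with SP, in libraries where they were also lower and rested on fewer estimated fragments, as given below. As plain ratios of FPKM, 6-OHDA over control ran from 1.02 for Cdc20 to 4.40 for Bub1, with a median of 2.55 and with 25 of 36 genes above 2. The ratio of Bub1 is that of 0.30 to 1.32 FPKM, about 16 and 69 estimated fragments. Among the 30 members with a mean of at least 1 FPKM over the sorted libraries, a limit set on this result after the data were seen, the ratios ran up to 4.13 for Cdk1, with a median of 2.455 and 19 of 30 above 2. SP over control ran from 1.31 for Incenp to 2.06 for Aurka, with a median of 1.72 and 4 of 36 genes above 2. Between the controls the ratios ran from 1.98 for Foxm1 to 21.2 for Cenpf, with a median of 9.41. Across the 36 genes, the 6-OHDA and SP differences, which have no library in common, had a Spearman correlation of 0.25, and across all tested genes 0.09. Genes are not independent replicates, and the difference in spread was not tested.

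**Figure D2:**
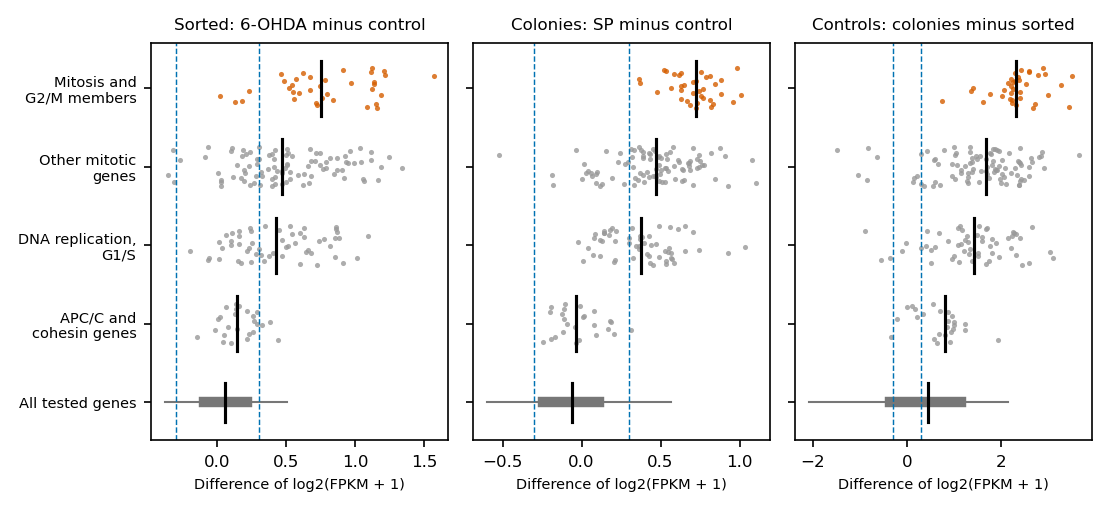
Differences of log2(FPKM + 1) in the 3 comparisons, with 1 point per gene for the members and for the other mitotic genes, the DNA replication and G1/S genes and the anaphase-promoting complex and cohesin genes, and a black line at each median. The grey bar spans all tested genes from percentile 25 to 75 with whiskers from 5 to 95, and dashed lines mark 0.3 in either direction. The member medians, 0.75, 0.73 and 2.32, lie right of those of the 3 lists drawn in each panel.

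Among the genes of mitotic entry, Ccna2, the cyclin of S phase and G2, was at 1.48 FPKM in sorted control cells, 4.52 after 6-OHDA, 14.9 in control colonies and 25.3 with SP. Ccnb1, the main partner of Cdk1 at mitotic entry, was at 1.28 and 3.84 FPKM in the sorted libraries and 23.9 and 43.0 in the colonies. Ccnb2, a B-type cyclin found at the Golgi, was at 2.69, 5.10, 17.6 and 29.0 FPKM. Ccnb1 was the lowest of them in sorted control cells and the highest in both colony libraries. Its difference between the controls, 3.45, was exceeded among the 36 only by that of Top2a.

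Cdk1, the kinase that drives cells into mitosis, went from 0.64 FPKM in sorted control cells to 2.64 with 6-OHDA, and from 9.91 in control colonies to 18.4 with SP. Plk1, a kinase of centrosome maturation and mitotic entry, had 1.24 and 2.67 FPKM in the sorted and 9.63 and 16.6 in the colony libraries. Aurka, the Aurora kinase of the centrosome and spindle poles, had 1.77, 2.03, 7.50 and 15.5 FPKM. Cdk1 and Aurka thus parted with 6-OHDA, where the ratios were 4.13 and 1.15, and not with SP, where they were 1.86 and 2.06. Foxm1, a transcription factor that acts on many G2/M genes, was at 2.35 and 2.79 FPKM in the sorted libraries and 4.66 and 7.97 in the colonies. It had the smallest difference of the 36 between the controls, 0.76, and stayed at 0.3 or below there with quantile normalization. Over the 7 genes of this role, the median differences were 0.73 with 6-OHDA, 0.73 with SP and 2.33 between the controls.

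The spindle checkpoint kinase genes Bub1 and Ttk were among the lowest members in sorted control cells. Bub1, which recruits checkpoint proteins to kinetochores, was at 0.30 FPKM in sorted control cells, 1.32 after 6-OHDA, 5.14 in control colonies and 9.80 with SP. Ttk, also known as Mps1, which starts checkpoint signalling, was at 0.38, 1.34, 6.31 and 11.5 FPKM. Bub1b, which encodes the checkpoint protein BubR1, was at 1.64, 2.88, 11.1 and 17.7 FPKM. In sorted control cells Bub1b was well above the other 2, yet with 6-OHDA its ratio was the smallest of them, 1.76 against 4.40 for Bub1 and 3.53 for Ttk.

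Cdc20 and Ube2c work with the anaphase-promoting complex, the ubiquitin ligase that ends mitosis, as its activator and as its ubiquitin-conjugating enzyme. Cdc20 was at 4.66 FPKM in sorted control cells, the highest of the 36 there, and at 4.74 after 6-OHDA. In colonies it was at 22.2 FPKM without and 38.1 with SP, so its 2 sorted libraries were level and its colony libraries were not. Ube2c was at 3.78 and 9.85 FPKM in the sorted libraries and 37.4 and 76.2 in the colonies. It was the highest member in the sorted 6-OHDA library and in SP colonies, and its SP difference of 1.01 was the largest of the 36. The 5 checkpoint and anaphase-promoting complex genes had median differences of 0.76 with 6-OHDA, 0.77 with SP and 2.24 between the controls.

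At the centromere, Cenpa, the histone H3 variant that marks it, was at 3.94 FPKM in sorted control cells, 7.59 after 6-OHDA, 16.0 in control colonies and 30.2 with SP. Only Cdc20 was higher among the 36 in sorted control cells. Cenpe, a kinetochore kinesin that brings chromosomes to the spindle equator, was at 0.49, 1.25, 5.91 and 10.3 FPKM. Cenpf, a large protein of the outer kinetochore, was at 0.27, 0.86, 5.73 and 8.35 FPKM. Cenpf was thus under 1 FPKM in both sorted libraries and had the highest ratio of the 36 between the controls, 21.2, followed by Knl1 with 20.2.

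Ndc80 and Nuf2 are partners in the complex that binds spindle microtubules. Ndc80 was at 0.90 and 2.02 FPKM in the sorted and 6.98 and 11.4 in the colony libraries. Nuf2 was at 0.81 and 2.94 FPKM in the sorted and 7.68 and 13.8 in the colony libraries. The partners were close in sorted control cells, whereas with 6-OHDA the ratio was 3.63 for Nuf2 and 2.24 for Ndc80. Knl1, the kinetochore scaffold for Bub1, was the lowest member in all 4 libraries, with 0.09, 0.28, 1.82 and 3.73 FPKM. Its 6-OHDA ratio was 3.11, but at so low a level the difference on the log2(FPKM + 1) scale was only 0.23, and with a pseudocount of 0.1 it passed the threshold. Sgo1, shugoshin, which protects cohesion at centromeres, was at 0.40, 1.01, 2.70 and 4.48 FPKM. The median differences of the 7 centromere and kinetochore genes were 0.60 with 6-OHDA, 0.70 with SP and 2.07 between the controls, the last the lowest of the 6 roles on this scale, though their median FPKM ratio there, 9.48, was not.

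The chromosomal passenger complex corrects faulty attachments and later moves to the central spindle. Its kinase Aurkb was at 0.76 FPKM in sorted control cells, 1.95 after 6-OHDA, 7.13 in control colonies and 11.6 with SP. Its scaffold Incenp was at 2.27, 5.40, 13.6 and 17.9 FPKM. Aurkb and Incenp had 6-OHDA ratios of 2.57 and 2.38, while with SP Incenp had the smallest ratio of the 36, 1.31. Birc5, survivin, which docks the complex on chromosomes, was at 2.28 and 3.77 FPKM in the sorted libraries and 30.8 and 48.9 in the colonies. Cdca8, borealin, was at 1.36 and 4.18 FPKM in the sorted libraries and 12.7 and 23.6 in the colonies. In both colony libraries only Top2a and Ube2c were above Birc5, which was unlike its partners between the controls with a ratio of 13.5, against 9.38 for Aurkb, 9.32 for Cdca8 and 5.98 for Incenp.

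Among spindle motors and assembly factors, Kif11, the kinesin that pushes spindle poles apart, was at 1.14 FPKM in sorted control cells, 3.70 after 6-OHDA, 9.26 in control colonies and 15.7 with SP. Kif2c, a kinesin that takes microtubule ends apart, was at 0.74, 1.43, 7.57 and 13.2 FPKM. Tpx2, which activates Aurora A on the spindle, was at 2.02, 4.19, 14.8 and 28.1 FPKM. These 3 genes had SP ratios from 1.70 to 1.90, and 6-OHDA ratios from 1.93 to 3.25. Nusap1, which bundles spindle microtubules, was at 1.11, 2.14, 8.81 and 11.6 FPKM, and its SP difference, 0.36, was the smallest of the 36. Hmmr, a hyaluronan receptor that also acts on the spindle, was at 0.61, 1.56, 7.35 and 13.4 FPKM.

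Top2a, the topoisomerase that untangles chromosomes, was at 2.59 FPKM in sorted control cells and 9.68 after 6-OHDA, and at 39.99 in control colonies and 70.9 with SP. Its differences with 6-OHDA, 1.57, and between the controls, 3.51, were the largest of the 36 on the log2(FPKM + 1) scale. Mki67, the proliferation marker that coats mitotic chromosomes, was at 2.31 and 6.70 FPKM in the sorted libraries and 21.8 and 33.9 in the colonies. Mki67 followed Top2a with 6-OHDA, where its difference was 1.22, but not with SP, where 0.62 was below the member median. By flow cytometry, the paper reports significantly fewer basal cells positive for the protein of this marker in mice given the toxin. In SP colonies the paper reports a higher percentage of positive cells. The RNA of Mki67 thus went the other way in the sorted libraries and the same way in the colonies. The reason for this was not tested. The 7 genes of this role had median differences of 0.78, 0.73 and 2.38 with 6-OHDA, with SP and between the controls.

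On the log2(FPKM + 1) scale, central spindle and cytokinesis genes had the highest median difference of the 6 roles with 6-OHDA, 1.01, and the lowest with SP, 0.61. Prc1, which cross-links antiparallel microtubules at the midzone, was at 3.14 FPKM in sorted control cells, 7.95 after 6-OHDA, 24.1 in control colonies and 41.4 with SP. Kif20a, a midzone kinesin, was at 1.38, 2.28, 17.3 and 26.5 FPKM. The motor Kif23 was at 2.47, 4.33, 16.3 and 25.7 FPKM. Its partner in the centralspindlin complex, Racgap1, was at 1.74, 5.32, 15.6 and 23.0 FPKM. With 6-OHDA the ratio was 3.06 for Racgap1 and 1.75 for Kif23, so the partners moved unequally, while with SP they had 1.48 and 1.58.

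Ect2, the exchange factor that switches on RhoA at the furrow, was at 1.06 FPKM in sorted control cells, 2.87 after 6-OHDA, 10.1 in control colonies and 14.9 with SP. Anln, anillin, the scaffold of the contractile ring, was at 1.66, 4.79, 18.9 and 38.3 FPKM. Anln had the largest SP difference of this role, 0.98, and Ect2 the smallest, 0.52. Over the 6 genes the median difference between the controls was 2.60, the highest of the roles on this scale, though their median FPKM ratio there, 9.23, was not.

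Low levels of these genes limit what can be read from sorted control cells. There, 12 of the 36 genes were under 1 FPKM, against 2 of 36 in sorted 6-OHDA cells and 0 of 36 in either colony library, and 0 members were at 0 in any library. From the steps between low FPKM values, 1 FPKM on 1 kilobase was estimated to stand for 17.1 fragments in sorted control cells, 16.5 in sorted 6-OHDA cells, 17.6 in control colonies and 17.8 in SP colonies, a rough fit that assumes fragments of 250 bases. With the longest coding transcript of each gene, the median member then rested on about 66.5 fragments in sorted control cells, and 13 of the 36 on fewer than 50. Knl1 had the fewest, about 12, and Mki67 the most, about 388. The median member rested on about 153 fragments in sorted 6-OHDA cells, 673.5 in control colonies and 1032 in SP colonies. Exons of 8 members overlap those of another protein-coding gene in GENCODE vM21, 7 of them on the opposite strand, with 1271 shared bases for Kif20a and Cdc23, 911 for Prc1 and Rccd1 and 592 for Ube2c and Tnnc2. Whether the quantification used strand is not given in the sources used here.

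Of 93 other mitotic genes, 64 were higher and 3 lower with 6-OHDA, 71 higher and 1 lower with SP, and 84 higher and 5 lower in control colonies than in control sorted cells. Of all tested genes, 16.0% were higher and 7.84% lower with 6-OHDA, 11.3% and 19.5% with SP, and 55.6% and 26.5% between the controls. The median differences of the 93, which were 0.47, 0.47 and 1.70, were below those of the 36 members in each comparison. With a pseudocount of 5, 23 of the 93 were higher with 6-OHDA and 45 with SP, where 6.53% and 7.65% of tested genes were. Kif22, a chromosome-arm kinesin, had the largest 6-OHDA difference of this list, 1.34, from 0.62 to 3.09 FPKM, followed by Pbk with 1.24 and Ckap2l with 1.19. With SP the largest were those of Cdkn3, 1.11, Cep55, 1.08, and Ccnf, 0.93, and between the controls those of Psrc1, 3.66, Kif22, 2.93, and Cdca3, 2.88.

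The 36 members were also set beside 56 genes of DNA replication and the G1/S step, which serve the preceding phase of the cycle. With 6-OHDA 34 of these were higher and 0 lower, with SP 35 and 0, and between the controls 50 and 3. The shares of tested genes higher were 16.0%, 11.3% and 55.6% in that order, and those lower 7.84%, 19.5% and 26.5%. The member median exceeded that of the 56 by 0.33 with 6-OHDA, 0.35 with SP and 0.89 between the controls. At a pseudocount of 5 the gap was 0.09 with 6-OHDA and 0.46 between the controls, and at 0.1 it was 0.60 and 1.33. At 5, 17 of the 56 were higher with 6-OHDA, where 6.53% of tested genes were. Lig1, Gmnn and Mcm5 led the list with 6-OHDA, with differences of 1.09, 1.01 and 0.91. E2f8, Rrm2 and Ccne2 led it with SP, with 1.03, 0.93 and 0.75, and Gmnn and Tk1 between the controls, with 3.12 and 3.04.

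Subunits of the anaphase-promoting complex and of cohesin, with the activator Fzr1 and factors that load or release cohesin, take part in mitosis too but are mostly made through the whole cycle. Of these 25 genes, 3 were higher with 6-OHDA, Anapc4, Cdc27 and Cdc23, by 0.44, 0.38 and 0.32, and 0 were lower, where 16.0% of tested genes were higher and 7.84% lower. Without the salivary gland secretory genes in the sum 5 of the 25 were higher, and 17.7% of tested genes. With SP 1 was higher, Anapc15 by 0.31, and 0 lower, where 11.3% of tested genes were higher and 19.5% lower. Cdc20 and Ube2c thus differed between the colony libraries where this list was nearly level. The median of the list was 0.14 with 6-OHDA and −0.03 with SP, and 0.04 with SP after scaling by the median ratio. Between the controls, where 55.6% of tested genes were higher, it was 0.82, with 19 genes higher and 1 lower, and Anapc4 led with 1.94. Scaled by the median ratio it was 0.35 there, with 13 higher and 5 lower, where 39.9% of tested genes were higher and 39.6% lower.

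A list of 21 genes was written as brakes on the cycle, though its genes of the MuvB complex do not only restrain it. Of the 21, 6 were higher and 0 lower with 6-OHDA, where 16.0% of tested genes were higher. With SP 1 was higher and 7 lower, where 19.5% of tested genes were lower. With a pseudocount of 5, 1 was higher with 6-OHDA, and scaled by the median ratio 2 were higher and 5 lower with SP. Of tested genes, 6.53% were higher with 6-OHDA at that pseudocount, and 14.4% higher and 14.5% lower with SP at that scaling. With 6-OHDA the largest differences were those of the pocket protein gene Rbl1, 0.44, and of the inhibitors Cdkn1c, 0.43, and Cdkn2c, 0.40, all in the same direction as the mitotic genes. With SP the antiproliferative gene Btg2 went from 92.6 to 41.9 FPKM, a difference of −1.13, and Btg1 and Gas1 followed with −0.42 and −0.42. Between the controls, where 55.6% of tested genes were higher, 16 were higher and 3 lower. Cdkn2a, the locus of the inhibitor Ink4a, was at 0.34 FPKM in sorted control cells and 38.0 in control colonies, and Cdkn2b at 0.80 and 55.2, and Ccng1 was next with 2.46. The inhibitors Cdkn1a and Cdkn1c went the other way, from 259.8 to 88.1 and from 4.44 to 0.20 FPKM.

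Markers of other cell types moved in some of the same comparisons. With 6-OHDA, 8 of 14 fibroblast markers were higher and 0 lower, 6 of 12 among those that are tested genes, and 10 of 14 without the salivary gland secretory genes in the sum. Of all tested genes, 16.0% were higher and 7.84% lower, and 17.7% were higher without the salivary gland secretory genes in the sum. The fibroblast marker sum went from 404.2 to 599.99 FPKM in the sorted libraries, with 163.6 in control colonies and 134.4 in SP colonies. Pdpn was the most abundant, at 168, 153, 115 and 101 FPKM. It made up most of the sum in the colony libraries and was not higher with 6-OHDA. Col3a1 moved most with 6-OHDA, from 18.3 to 91.7, followed by Col1a1 and Col1a2 with differences of 1.91 and 1.68. Erythroid markers, 6 of 10 with values, summed to 1.85 FPKM in sorted control cells and 9.61 with 6-OHDA, led by Hba-a1 at 1.01 and 4.77, and to 1.18 and 0.92 in control and SP colonies. The methods include lysis of red blood cells and a lineage gate with TER119, an erythroid marker. The part of these cells in the 6-OHDA result was not tested.

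Endothelial markers, which the same gate was meant to remove, summed to 426.7 FPKM in sorted control cells and 421.2 with 6-OHDA, and to 16.1 and 8.62 in control and SP colonies, where Erg went from 10.3 to 1.41 and the rest did not fall in sum. Of the 12, 12 were lower in control colonies than in control sorted cells, as were 26.5% of tested genes. Pecam1, the most abundant, went from 107 to 1.39 FPKM and Cdh5 from 77.9 to 0.12. Leukocyte markers, 20 genes, summed to 18.9, 17.1, 34.9 and 129.7 FPKM in the 4 libraries, and the colony sums were mostly S100a8, which epithelial cells also make, at 30.9 and 125. Ptprc, which marks leukocytes, was at 0.77 and 0.47 FPKM in the sorted libraries and at 0 in both colony libraries.

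Basal and luminal markers moved beside the mitotic genes in colonies. With SP, 7 of 13 basal markers were higher and 1 lower, their sum going from 7444.9 to 15409 FPKM, led by Krt17, Krt5 and Krt14 with differences of 1.38, 1.28 and 1.07. Of 15 luminal markers 0 were higher and 8 lower with SP, or 5 lower scaled by the median ratio, led by Cited1 with −1.45, and their sum went from 3678 to 3474 FPKM. Of tested genes, 11.3% were higher and 19.5% lower with SP, or 14.4% and 14.5% scaled by the median ratio. Between the controls, where 55.6% of tested genes were higher and 26.5% lower, 13 luminal markers were higher and 0 lower. Scaled by the median ratio, 10 were higher and 1 lower there, where 39.9% and 39.6% of tested genes were. The luminal sum was 1517 FPKM in sorted control cells and 1376 after 6-OHDA, and Ly6d moved most between the controls, from 33.6 to 976. Basal markers summed to 12129 FPKM in sorted control cells and 11382 after 6-OHDA, though their median difference was 0.11, with 2 of 13 higher and 2 lower. The largest differences there were −0.46 for Krt17, −0.45 for Krt14 and 0.44 for Vim. In control colonies 9 of 13 basal markers were lower than in control sorted cells, where 26.5% of tested genes were. The part of these shifts in the mitotic results was not tested.

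The promoters of the 36 genes were searched for short motifs of cell cycle promoters. The CHR element, bound by the MuvB complex with its partners, was searched as TTTGAA and as TTTAAA, the NF-Y box as CCAAT, and the E2F site as TTTGGCGC or TTTCCCGC or TTTCGCGC or TTTGCCGC, on both strands, with overlapping matches counted. RefSeq promoters on GRCm38.p6, from 250 bases before to 50 after a gene start, were held for 30 of the 36 genes, as 32 promoters, since Ect2 and Prc1 had 2 overlapping ones each. Aurkb, Ccna2, Foxm1, Incenp, Kif20a and Tpx2 had no entry. A match is a description of these letters and not a site of binding or a cause.

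TTTGAA was found in 25 of the 32 member promoters, 78.1%, and in 17.9% of all 32851 promoters of the table. CCAAT was found in 25 of 32 too, 78.1%, against 37.4% of all promoters, and 2 or more matches of it in 16 of 32, against 11.7% of all promoters. Both TTTGAA and CCAAT were in 21 of 32, 65.6%, against 6.95%. TTTAAA was in 9 of 32, 28.1%, against 13.2%, and an E2F match in 1 of 32, 3.12%, that of Cdk1, against 2.26%. Nuf2 and Nusap1 had neither form of the CHR element and no CCAAT. Among promoters of the tested genes the shares were 12.0% for TTTGAA, 37.6% for CCAAT and 4.97% for both, and an E2F match was in 503 of 12586, so the E2F share of the members lay above that of all promoters and below that of the tested genes.

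The other lists differed in these letters. Promoters of the other mitotic genes held TTTGAA in 51.2%, CCAAT in 67.9% and an E2F match in 13.1% of 84. Those of the DNA replication and G1/S genes held TTTGAA in 18.9%, CCAAT in 54.7% and an E2F match in 34.0% of 53. Those of the anaphase-promoting complex and cohesin genes held TTTGAA in 12.0%, CCAAT in 44.0% and an E2F match in 16.0% of 25. These shares were not tested against each other.

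The TTTGAA matches of the members lay close to the gene start. Of 32 matches, 3 of them repeats in the overlapping promoters of Ect2 and Prc1, 23 began within 40 bases of it, 71.9%, against 21.0% of the 6737 matches in all promoters, a distance chosen after the positions were seen. With each site counted once per gene it was 21 of 29, 72.4%, against 21.2%. On the strand of the gene 25 of 32 read TTTGAA, 78.1%, against 53.3% of all matches. Also chosen after it was seen, neighbouring CCAAT matches began 31 to 33 bases apart in 6 of 32 member promoters, 18.8%, in 7.14% of those of the other mitotic genes, in 3.77% of those of the DNA replication and G1/S genes, in 1.54% of those of the tested genes and in 0.925% of all promoters. Those of the members were Aurka, Ccnb1, Ccnb2, Cdk1, Hmmr and Ube2c.

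**Figure D3:**
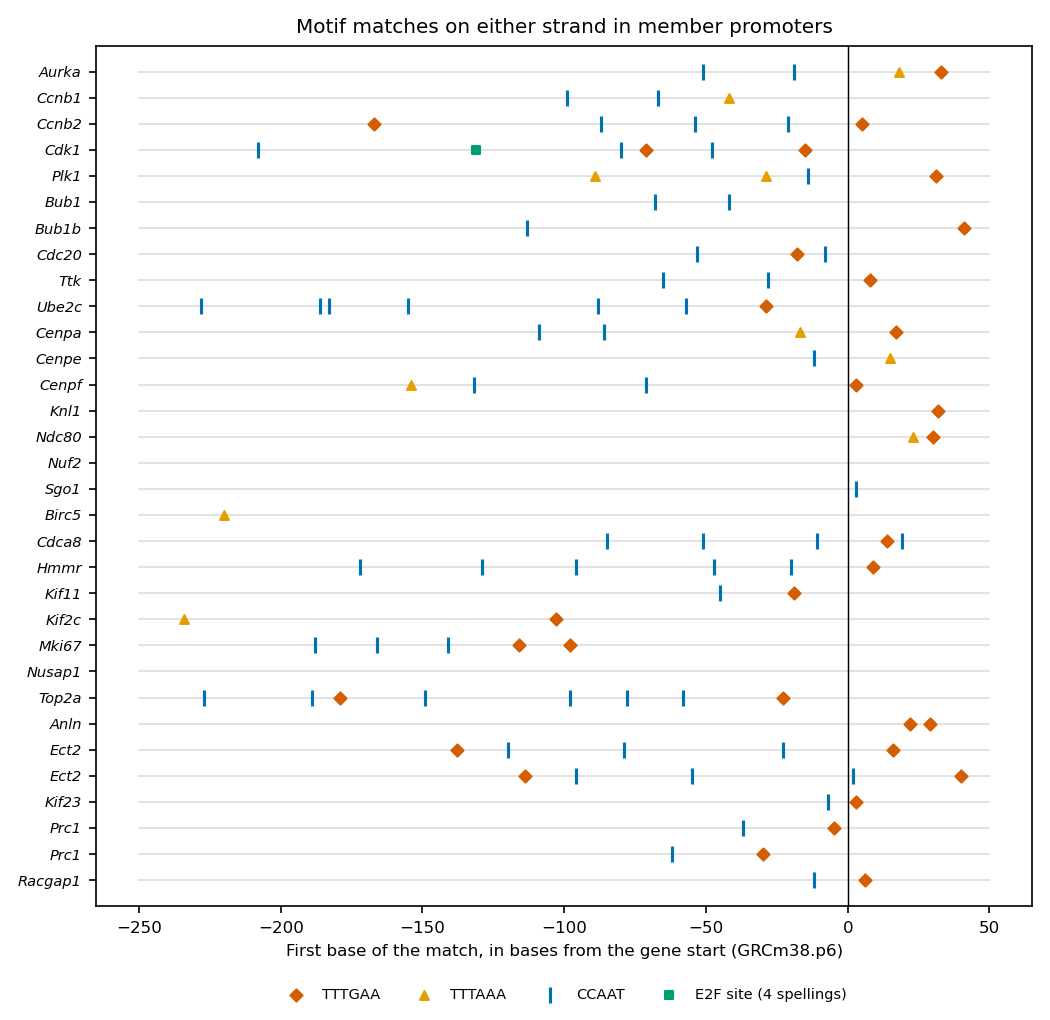
Motif matches on either strand in the 32 promoters of 30 members, each line running from 250 bases before to 50 after the gene start at the black line. Diamonds are TTTGAA, triangles TTTAAA, bars CCAAT and the square an E2F match. Most diamonds lie within 40 bases of the start, and most bars before it.

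Printed below are the 250 bases before the gene start for the 4 members with the highest mean FPKM among those whose promoter holds both TTTGAA and CCAAT, from RefSeq on GRCm38.p6, written 5′ to 3′ along the gene. Capitals mark TTTGAA and CCAAT on either strand, so that TTCAAA and ATTGG are the same motifs on the other strand. Ube2c lies on the plus strand, at chr2:164769679-164769928, with 1 TTTGAA and 6 CCAAT matches. Top2a lies on the minus strand, at chr11:99024190-99024439, with 2 TTTGAA and 6 CCAAT matches. Prc1 lies on the plus strand, at chr7:80294226-80294475, with 1 of each, and Cdc20 on the minus strand, at chr4:118437344-118437593, with 1 TTTGAA and 2 CCAAT matches. All 4 hold both motifs because they were chosen for it, and no link between the motifs and the differences between libraries was tested.
Ube2c: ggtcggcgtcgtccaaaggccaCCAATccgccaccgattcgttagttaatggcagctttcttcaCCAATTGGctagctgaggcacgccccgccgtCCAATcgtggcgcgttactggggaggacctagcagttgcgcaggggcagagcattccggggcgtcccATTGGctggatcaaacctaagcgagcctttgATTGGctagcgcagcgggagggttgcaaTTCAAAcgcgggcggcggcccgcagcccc
Top2a: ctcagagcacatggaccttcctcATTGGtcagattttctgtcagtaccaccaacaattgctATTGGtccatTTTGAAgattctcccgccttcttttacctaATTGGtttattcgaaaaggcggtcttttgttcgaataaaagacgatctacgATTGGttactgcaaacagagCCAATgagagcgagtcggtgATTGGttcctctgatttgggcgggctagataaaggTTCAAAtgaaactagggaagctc
Prc1: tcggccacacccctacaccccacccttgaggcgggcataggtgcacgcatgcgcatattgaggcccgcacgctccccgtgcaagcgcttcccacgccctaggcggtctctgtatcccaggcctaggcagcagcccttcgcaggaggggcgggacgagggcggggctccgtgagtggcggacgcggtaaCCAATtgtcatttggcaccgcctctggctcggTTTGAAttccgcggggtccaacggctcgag
Cdc20: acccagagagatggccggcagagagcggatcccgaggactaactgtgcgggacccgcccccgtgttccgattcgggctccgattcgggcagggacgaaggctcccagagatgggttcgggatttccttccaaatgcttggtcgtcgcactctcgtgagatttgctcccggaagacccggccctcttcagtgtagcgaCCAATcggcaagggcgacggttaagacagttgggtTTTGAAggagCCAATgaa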

How the data were processed

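The authors deposited FPKM values with 2 decimals for 17630 genes in each of 4 libraries made from total RNA. The submitters' processing notes name Bowtie2, RSEM 1.3.1, DESeq2 1.4.5 and the build mm10, without their roles or order. FPKM values are not counts, so no count test was run, and with 1 library per condition no test was made. Gene numbers were matched to RefSeq symbols of GRCm38.p6 for 17512 genes.

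Values were compared as log2(FPKM + 1) among the 12282 genes with a mean of at least 1 FPKM over the 4 libraries, and a gene counted as higher or lower past 0.3. Counts and medians of the other lists cover all genes of a list with values, also those below that mean. All members are named. Of other lists, the 3 genes with the largest difference in each comparison among those past the filter were eligible, and of cell type lists also the most abundant gene. An eligible gene that is withheld is not reported here. Genes named outside this rule were chosen after their values were seen. The members and lists were chosen with earlier results of these data known.

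Alternatives were pseudocounts of 0.1 and 5, other filters on low values, 4 scalings, a threshold of 1 and a shorter promoter window. Scripts were tested on simulated data with python 3.11.15, numpy 2.4.6, pandas 2.3.3 and matplotlib 3.10.9.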

Additional observations from a re-analysis of the deposited data

How the results depend on the processing

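Of the values recomputed under the alternatives, 93 stayed within 1.5 times of the reported one and 10 moved further, and 0 of the member medians changed sign. The threshold and the pseudocount accounted for all 10. With a pseudocount of 0.1, the median member difference with 6-OHDA was 1.22, and the member median stood above the G1/S median by 0.60 with 6-OHDA and 1.33 between the controls. With 5, the count of members higher with 6-OHDA was 18, where 6.53% of tested genes were higher. The median member difference was then 0.31 with 6-OHDA and 1.295 between the controls, and the gap to the G1/S median 0.091 and 0.46. A larger pseudocount shrinks differences of genes at low level by its construction. With a threshold of 1, 12 members were higher with 6-OHDA, where 123 of 12282 tested genes were, and 1 with SP, where 1.83% were. The count of members lower was 0 in every comparison under each alternative run, and the counts higher with rescaling, median ratio, quantile normalization and no salivary gland secretory genes were 32 with 6-OHDA, 36 with SP and 35 or 36 between the controls. Under these scalings 10.9% to 17.7% of tested genes were higher with 6-OHDA, 10.5% to 14.4% with SP and 39.9% to 49.4% between the controls. Scalings of the 4 libraries together, used for the order of the values, and the filter over the 2 compared libraries for the ratios above 2, were chosen after seeing the data. Requiring a mean of 5 FPKM left 29 members, of which 27, 29 and 29 were higher. Of the 9121 genes past that filter, 15.0%, 10.5% and 55.1% were higher. The shares of member promoters with the TTTGAA form, with CCAAT, with the TTTAAA form and with an E2F match in the window from 150 bases before to 50 after the start were 78.1%, 78.1%, 18.8% and 3.12%, against 11.2%, 28.6%, 7.93% and 1.66% of all promoters. Low levels limit the sorted control library most, where 12 members were under 1 FPKM. No spread between replicates can be had from these libraries, and a condition and its single library cannot be told apart.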
